A study of Mus musculus with 18 samples.

Results

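The 10 genes described here carry out antigen presentation on the major histocompatibility complex (MHC), and were chosen by name: H2-K1, H2-D1, B2m, Tap1, Tap2, Tapbp, Psmb8, Psmb9, H2-Aa and Cd74. Each had 1 row among the 56953 gene IDs of the count table, and all 10 were among the 13068 genes with enough counts to test. The cells were macrophages differentiated from mouse bone marrow over 7 days, in RPMI with 20% FBS and 30% L929 supernatant, a source of M-CSF. The donors were C57BL/6J mice (B6) or knock-in mice in which a threonine of the kinase RIPK1 is replaced by alanine (T169A). RIPK1 acts in inflammatory signalling and cell death below TNF and Toll-like receptors. For each genotype there were 3 libraries of unstimulated cells, 3 of cells given lipopolysaccharide (LPS, the ligand of TLR4) for 2 hours, and 3 of cells given LPS/5z7 for 2 hours. The name 5z7 is commonly used for a resorcylic lactone that inhibits the kinase TAK1, but the labels do not expand it. Doses, a vehicle control, and the age and sex of the mice are not given in the sources used here.

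Class I molecules display peptides from the cell's own proteins to CD8+ T cells. The proteasome cuts the proteins, the TAP transporter carries the peptides into the endoplasmic reticulum, and tapasin holds TAP next to the empty class I chain until a peptide binds. Class II molecules display peptides from ingested material to CD4+ T cells, with the invariant chain guarding their groove on the way. In macrophages interferons induce most of these genes, through IRF1 among other factors and through the coactivators NLRC5 for class I and CIITA for class II.

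In both genotypes all 10 genes were higher after LPS, beside 29.6% of all genes tested in B6 cells and 30.3% in T169A cells. The rises ran from 1.39-fold for H2-Aa to 5.24-fold for Tap1 in B6 cells. In T169A cells they ran from 1.64-fold for H2-D1 and B2m to 5.53-fold for Tap1. The estimates of Tap1, Tap2, Tapbp, Psmb8 and Psmb9 were above those of H2-K1, H2-D1, B2m and H2-Aa in each genotype. Cd74 stood beside Psmb8, with log2 fold changes of 1.09 against 1.12 in B6 cells and 1.41 against 1.36 in T169A cells. The differences between genes were not tested, and several of their 95% intervals overlap. In B6 cells those of Psmb8 (0.75 to 1.48) and Psmb9 (0.97 to 1.76) overlap that of H2-K1 (0.55 to 1.05). In T169A cells that of Tap2 (1.31 to 1.75) overlaps that of H2-K1 (0.84 to 1.35). Adding 5z7 to LPS left none of the 10 past the test. The shares over all genes tested were 7.03% higher and 6.79% lower in B6 cells, and 6.5% and 6.53% in T169A cells. Ifnb1, which encodes interferon beta, fell in the same libraries, in B6 cells from a mean of 59.6 to 13.1 CPM. It remained above the unstimulated mean of 0.0686 CPM, and a link between Ifnb1 and the members was not tested. No member differed past the test between T169A and B6 cells. Among all genes tested few did, 0.214% in unstimulated cells, 0.222% after LPS and 0.161% under LPS/5z7. The rise of H2-K1, H2-D1, B2m, H2-Aa and Cd74 in B6 cells depends on the scaling of the libraries: with library size alone in place of TMM scaling none of these 5 was called, and H2-D1, B2m and H2-Aa changed sign.

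Of the members 8 lie on chromosome 17, in the MHC region, and B2m lies on chromosome 2. RefSeq promoters on the build GRCm38.p6 were at hand for 8 of the 10, and 5 stretches are shown because they hold letters that match sites known from these genes. Capitals mark matches on either strand to GGGNNTTCC, a form of the NF-kB site, and to GAAANNGAA, a form of the interferon response element's core. They also mark CCAAT, the box bound by NF-Y (ATTGG on the other strand). No base was shared by matches to different motifs.
H2-K1: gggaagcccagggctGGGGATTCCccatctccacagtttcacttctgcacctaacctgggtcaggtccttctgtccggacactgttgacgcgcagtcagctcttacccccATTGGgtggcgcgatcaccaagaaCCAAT
H2-D1: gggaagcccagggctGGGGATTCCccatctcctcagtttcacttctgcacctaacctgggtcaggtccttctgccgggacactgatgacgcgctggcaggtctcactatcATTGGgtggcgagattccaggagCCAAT
B2m: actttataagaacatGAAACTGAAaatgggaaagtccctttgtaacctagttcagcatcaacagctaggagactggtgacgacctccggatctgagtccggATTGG
H2-Aa: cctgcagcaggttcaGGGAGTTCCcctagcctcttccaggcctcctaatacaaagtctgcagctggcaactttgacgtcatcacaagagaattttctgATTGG
Tap1 and Psmb9: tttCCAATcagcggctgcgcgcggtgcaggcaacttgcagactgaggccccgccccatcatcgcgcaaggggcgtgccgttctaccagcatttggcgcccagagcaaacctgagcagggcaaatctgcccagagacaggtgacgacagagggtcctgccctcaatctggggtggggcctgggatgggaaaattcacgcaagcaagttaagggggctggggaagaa

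The H2-K1 stretch is chr17:34000335-34000473 on the minus strand and the H2-D1 stretch chr17:35262908-35263045 on the plus strand. Both hold the NF-kB match in the same 9 letters, and 123 of 139 aligned positions (88.5%) were identical. The B2m stretch is chr2:122147533-122147638 on the plus strand and the H2-Aa stretch chr17:34287867-34287969 on the minus strand. Tap1 and Psmb9 run in opposite directions from start sites 225 bases apart, and the stretch between them, chr17:34187331-34187555, is printed in the direction of Tap1 with a single CCAAT match. Over windows of 250 bases before to 50 after a start, GGGNNTTCC matched in 3 of the 8 genes (H2-K1, H2-D1 and H2-Aa) and in 5.82% of 32851 promoters. GAAANNGAA matched in 1 of 8 (B2m) against 8.56% of promoters, and TTCNNNGAA, the STAT site, in 1 of 8 (Psmb8) against 8.3%. CCAAT matched in 7 of 8, all but Psmb8, against 37.4%. A match describes letters in these windows, not a site in use. Each motif was searched only in the letters and spacing given, so a promoter without a match can still hold another form of the site. The lower-case runs gggaaagtccc in the B2m stretch and tttcacttc in the H2-K1 and H2-D1 stretches were not covered by this search.

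The libraries held between 14.6 and 30.4 M counts, so that 3 counts correspond to 0.0986 to 0.205 CPM (counts scaled to a library of 1 M), and the members had between 66 counts (H2-Aa) and 61776 counts (H2-D1) in a library. Levels are CPM after TMM scaling, and libraries carry the running number of the deposited columns. Macrophage markers were present in all groups, at a summed level of 31104 to 41340 CPM. Library 7, of B6 unstimulated cells, was the highest of its 3 for all 10 members, and library 8, of B6 LPS cells, likewise for all 10. Both also stood apart over the whole table. The chi-square of counts per degree of freedom was 81.3 and 101 for library 7 with libraries 1 and 4, against 5.92 between those. For library 8 with libraries 2 and 5 it was 34.7 and 22.6, against 5.86. The share of all genes highest in these libraries was not counted. Library 7 was also the shallowest, at 14.6 M counts. It had the highest macrophage marker sum, 41340 CPM against 31312 and 31104 CPM in libraries 1 and 4. Most of this sum was Lyz2, at 35351 CPM against 24746 and 24530 CPM. Cd68, Fcgr1 and Itgam were also highest of the group in library 7, while Adgre1, Csf1r and Mertk were lowest there. Values without library 7 are given for the LPS effect of each member in B6 cells, and for other named genes where the call changed. Nothing in the labels says whether libraries of a group came from separate mice, so p-values measure the spread between these libraries, which may be technical.

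The 2 classical heavy chains and their partner were the most abundant members. Per kilobase of exon, B2m stood at 1776 ± 382 CPM in unstimulated B6 cells (SD, n = 3), H2-D1 at 653 ± 84.2, H2-K1 at 302 ± 61 and Tapbp at 85.7 ± 5.21. These 4 did not overlap one another. Psmb8 at 23 CPM per kilobase, Cd74 at 14.4, Tap2 at 13.5, Tap1 at 10.9 and Psmb9 at 9.3 formed a run in which each overlapped its neighbour. H2-Aa was lowest at 0.927 ± 0.141 CPM per kilobase, apart from all others. After LPS in B6 cells Tap1 reached 57.1 ± 7.9 CPM per kilobase, next after Tapbp at 243. With the length of the longest transcript Psmb8 came before it, at 88.5 against 80.

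**Figure D1:**
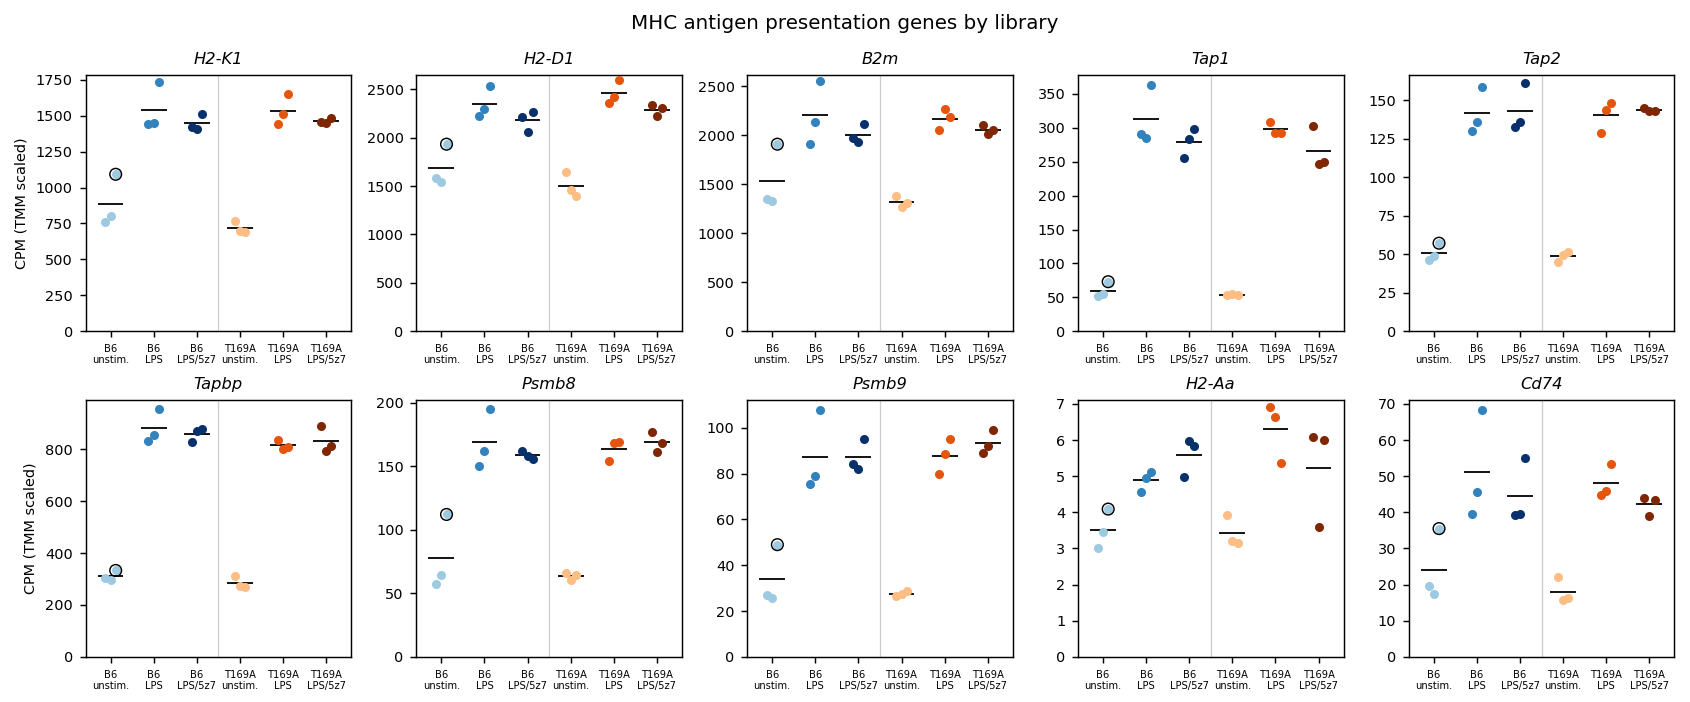
Level of the 10 members in CPM (linear axis from 0, TMM scaled) in each of the 18 libraries, 3 points per group, with the group mean as a bar. The circled point is B6 unstimulated library 7. The LPS libraries lie above the unstimulated ones in both genotypes for all 10 genes. For Tap1 in B6 cells they are at 285 to 363 CPM against 51.3 to 73.0 CPM. The share of all genes with libraries apart in this way was not counted.

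H2-K1 encodes the heavy chain of the class I molecule H-2K. Its level in the B6 unstimulated libraries 1, 4 and 7 was 762, 805 and 1092 CPM, and in the B6 LPS libraries 2, 5 and 8 it was 1439, 1452 and 1734 CPM. In T169A cells it was 765, 696 and 692 CPM in the unstimulated libraries 10, 13 and 16, and 1444, 1514 and 1648 CPM in the LPS libraries 11, 14 and 17. The libraries did not overlap in either genotype, and library 7 was the only unstimulated library above 805 CPM. The log2 fold change was 0.80 ± 0.12 (SE) in B6 cells (edgeR's quasi-likelihood test, adjusted p = 1.61e-05) and 1.10 ± 0.12 in T169A cells (adjusted p = 4.08e-07 by the same edgeR test). Without library 7 the B6 value was 0.98.

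H2-D1 encodes the heavy chain H-2D. It was at 1579, 1539 and 1933 CPM in unstimulated B6 libraries and at 2221, 2295 and 2538 CPM after LPS. T169A libraries were at 1646, 1460 and 1396 CPM unstimulated and 2362, 2420 and 2593 CPM after LPS. Again no LPS library fell among the unstimulated ones. The log2 fold changes were 0.48 ± 0.10 in B6 cells (edgeR adjusted p = 0.000445) and 0.71 ± 0.10 in T169A cells (edgeR adjusted p = 8.42e-06), and the B6 value without library 7 was 0.59. H2-K1 and H2-D1 have near copies: 8.11% of the 50-base windows of H2-K1 and 14.3% of those of H2-D1 also occur in another gene's transcripts, and how the authors counted reads that match several genes is not given in the sources used here. Over 100-base windows the shares were 0% and 4.64%.

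B2m encodes beta-2 microglobulin, the light chain shared by class I molecules. Its level was 1345, 1331 and 1907 CPM in unstimulated B6 cells and 1914, 2137 and 2553 CPM after LPS. Library 7 lay just under the lowest LPS library, the narrowest gap of the 3 class I genes. The T169A libraries were further apart, at 1378, 1268 and 1311 CPM unstimulated and 2047, 2261 and 2185 CPM after LPS. The log2 fold changes were 0.53 ± 0.13 (edgeR adjusted p = 0.00167) and 0.71 ± 0.13 (edgeR adjusted p = 0.000115). Without library 7 the B6 value was 0.72.

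Tap1 and Tap2 encode the subunits of the peptide transporter. Tap1 rose most of the 10: from 51.3, 54.8 and 73.0 CPM to 291, 285 and 363 CPM in B6 cells, and from 54.1, 54.4 and 53.2 CPM to 309, 293 and 292 CPM in T169A cells. The gap between the groups was wider than the spread within them in both genotypes. The log2 fold changes were 2.39 ± 0.13 (edgeR adjusted p = 6e-11) and 2.47 ± 0.13 (edgeR adjusted p = 4.19e-11). Tap2 rose less, from 46.6, 49.0 and 57.2 CPM to 130, 136 and 159 CPM in B6 cells, a log2 fold change of 1.47 ± 0.10 (edgeR adjusted p = 1.64e-09). In T169A cells Tap2 went from 44.9, 49.7 and 51.2 CPM to 129, 144 and 148 CPM, or 1.53 ± 0.11 (edgeR adjusted p = 1.01e-09). Without library 7 the B6 values were 2.56 for Tap1 and 1.56 for Tap2. The 95% intervals of Tap1 (2.11 to 2.67) and Tap2 (1.25 to 1.70) in B6 cells do not meet. The exons of Tap1 and Psmb9 overlap by 212 bases on opposite strands in GENCODE M21, and the strand setting of the counting is not given in the sources used here.

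Tapbp encodes tapasin. Its level was 303, 298 and 333 CPM in unstimulated B6 libraries and 831, 856 and 955 CPM after LPS, with T169A libraries at 310, 274 and 271 CPM and 834, 802 and 808 CPM. The log2 fold changes of 1.50 ± 0.09 (edgeR adjusted p = 1.09e-10) and 1.51 ± 0.09 (edgeR adjusted p = 1e-10) were the most precise of the 10, and the genotypes differed by less than the SE. Without library 7 the B6 value was 1.55. The exons of Tapbp overlap by 149 bases with those of Zbtb22 on the same strand, a gene at 35.3 to 53.4 CPM, and by 904 bases with the antisense transcript Gm19412, at 0.658 to 2.17 CPM.

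Psmb8 and Psmb9 encode beta5i and beta1i, catalytic subunits that replace Psmb5 and Psmb6 in the immunoproteasome. Psmb8 was at 57.6, 64.2 and 112 CPM in unstimulated B6 cells and at 150, 162 and 195 CPM after LPS; in T169A cells it was at 66.1, 60.7 and 64.7 CPM and then at 154 CPM or more, with a mean of 164 ± 8.15 CPM (SD, n = 3). Library 7, at 112 CPM, stood apart from the other unstimulated libraries without reaching those of LPS. The log2 fold changes were 1.12 ± 0.17 (edgeR adjusted p = 2.45e-05) and 1.36 ± 0.17 (edgeR adjusted p = 2.9e-06), and without library 7 the B6 value was 1.47. Psmb9 went from 27.2, 25.9 and 49.0 CPM to 75.3, 79.0 and 108 CPM in B6 cells, a log2 fold change of 1.37 ± 0.19 (edgeR adjusted p = 6.67e-06), and 1.71 without library 7. In T169A cells it went from 26.5, 27.3 and 28.7 CPM to 79.9, 88.4 and 95.2 CPM, or 1.67 ± 0.19 (edgeR adjusted p = 6.72e-07).

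H2-Aa encodes the alpha chain of the class II molecule I-A, and Cd74, on chromosome 18, the invariant chain. H2-Aa was scarce, at 3.02, 3.46 and 4.09 CPM in unstimulated B6 libraries and 4.56, 4.96 and 5.13 CPM after LPS. The nearest libraries of the B6 groups were library 7 and library 2, and the log2 fold change of 0.47 ± 0.19 (edgeR adjusted p = 0.034) was called only narrowly; without library 7 it was 0.58. It was no longer called without library 1, 4, 5 or 8, with values of 0.38 to 0.47 and adjusted p of 0.0712 to 0.122 in edgeR. T169A libraries went from 3.92, 3.22 and 3.14 CPM to 6.91, 6.64 and 5.37 CPM, or 0.89 ± 0.18 (edgeR adjusted p = 0.00045). Cd74 was at 19.6, 17.3 and 35.5 CPM in unstimulated B6 cells and at 39.5, 45.5 and 68.4 CPM after LPS. Here library 7 came close to library 2, and library 8 stood apart on the high side. Cd74 had the widest error of the 10, with a log2 fold change of 1.09 ± 0.24 (edgeR adjusted p = 0.000806), and 1.46 without library 7. In T169A cells Cd74 went from 22.2, 15.7 and 16.2 CPM to 44.7, 46.0 and 53.5 CPM, or 1.41 ± 0.24 (edgeR adjusted p = 8.14e-05).

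Of all genes tested, 29.6% were higher and 33.5% lower after LPS in B6 cells, and 30.3% and 31.5% in T169A cells. Against this background 10 of 10 members were higher in each genotype. The members' median log2 fold change was 1.10 in B6 and 1.39 in T169A cells, beside -0.07 and -0.03 over all genes tested. TMM factors were 1.24 to 1.28 in unstimulated libraries, 0.83 to 0.86 after LPS and 0.93 to 0.96 after LPS/5z7. Scaling by library size alone moved the median of all genes by -0.59 and -0.58 in B6 and T169A cells, and then 5 and 7 members were called, all higher. Tap1, Tap2, Tapbp, Psmb8 and Psmb9 were called in both genotypes under either scaling; with library size alone H2-K1 and Cd74 were called in T169A cells but not in B6 cells. The share of higher calls among all genes called moved with it from 46.9% to 19% in B6 and from 49% to 19.3% in T169A cells. In bulk RNA, more cells of a type and more RNA per cell cannot be told apart. Dendritic cell markers had higher sums after LPS (summed 14.9 to 22.2 CPM unstimulated and 39.4 to 44.8 CPM after LPS in B6 cells, 12.6 to 16.6 and 28.7 to 34.2 CPM in T169A cells). Of these 7 markers 2 were testable, Itgax and Zbtb46, and Itgax made up most of the sum. Flt3, Xcr1, Clec9a, Cd209a and Ccr7 reached at most 0.615 CPM, and the part of such cells in the class II values was not tested. The summed level of the B cell markers was lower after LPS in B6 cells, at 1.92 to 2.09 against 2.86 to 5.11 CPM; nearly all of it was Cd79b, the only one of the list testable. Neutrophil markers had higher sums after LPS, at 29.3 to 36.5 against 14.6 to 24.5 CPM in B6 and 29.2 to 47.4 against 19.2 to 27.9 CPM in T169A cells. S100a8 and S100a9 made up most of these sums, Ly6g was at most at 0.184 CPM and Elane at 0.215 CPM, and the part of such cells in the members' values was not tested.

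**Figure D2:**
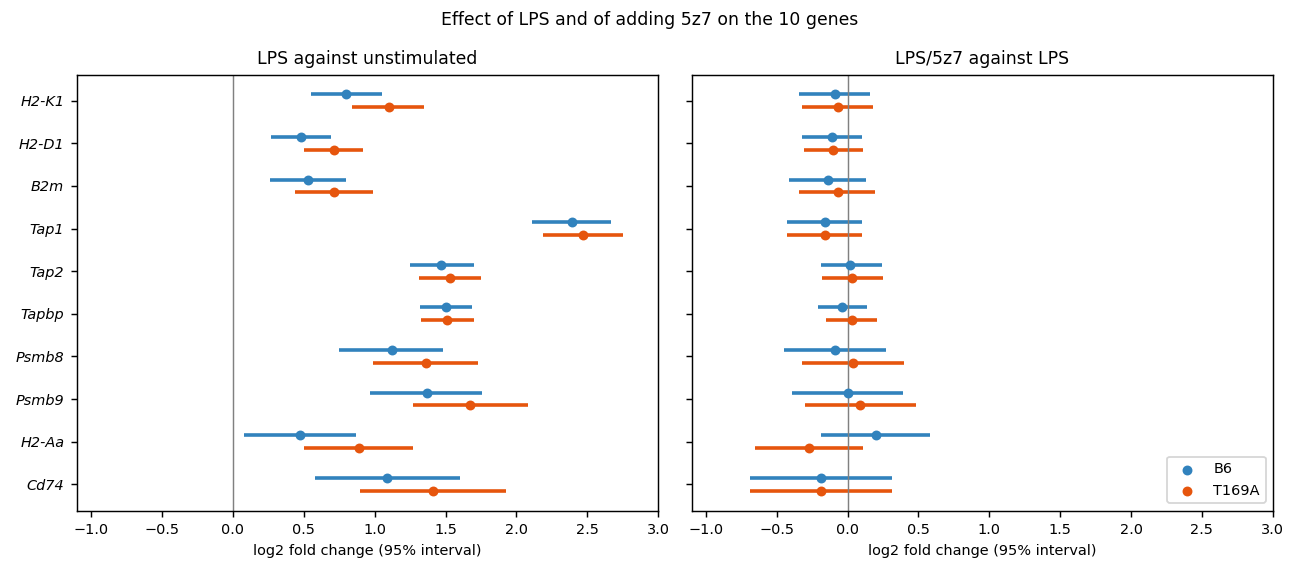
Log2 fold change of the 10 members for LPS against unstimulated (left) and LPS/5z7 against LPS (right), with 95% intervals, in B6 (blue) and T169A (orange) cells. On the left every interval lies above 0, with Tap1 at 2.39 and 2.47 farthest out; on the right every interval holds 0.

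The standard proteasome subunits gave a reference for Psmb8 and Psmb9. The ratio of Psmb8 to Psmb5, both per kilobase, was 0.56, 0.581 and 0.694 in the unstimulated B6 libraries and 1.12, 1.12 and 1.26 after LPS. In T169A cells it went from 0.576, 0.57 and 0.527 to 1.2, 0.944 and 0.935. Psmb9 to Psmb6 went from a mean of 0.113 ± 0.0181 to 0.178 ± 0.0248 in B6 cells and from 0.101 ± 0.00383 to 0.171 ± 0.00451 in T169A cells (SD, n = 3). Psmb10, the third inducible subunit (beta2i), stood to Psmb7 as 2.1 ± 0.39 before and 3.13 ± 0.16 after LPS in B6 cells, and as 1.95 ± 0.0668 and 3.06 ± 0.178 in T169A cells. In all 3 pairs and both genotypes the LPS libraries lay above the unstimulated ones. Library 7 was the highest of its group in each pair, and its high Psmb8 and Psmb9 levels came with a higher ratio as well. No test of the ratios was run; an exact permutation test of 3 libraries against 3 cannot go below p = 0.10. Their absolute size depends on the gene length used.

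**Figure D3:**
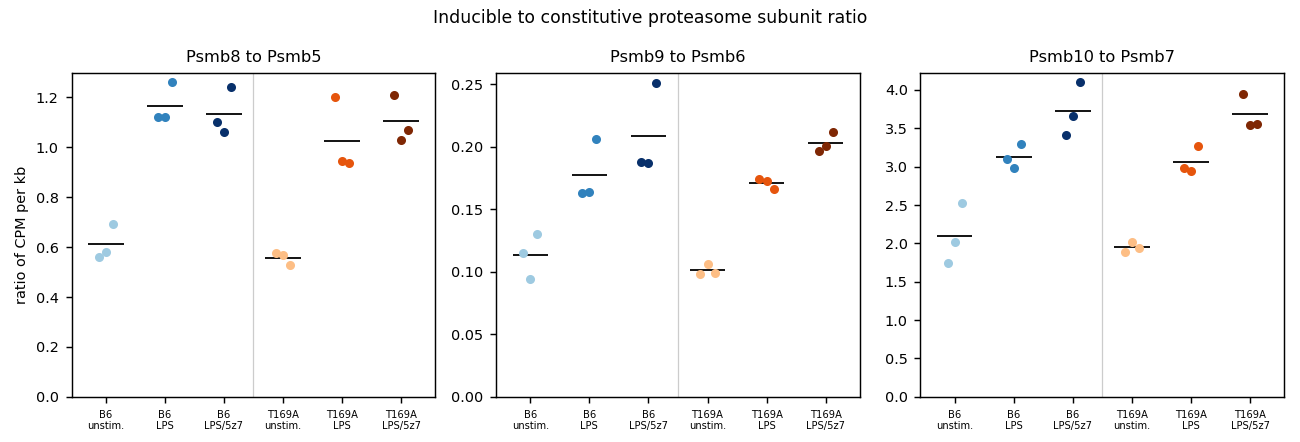
Ratio of each inducible catalytic subunit to the standard subunit it replaces, from CPM per kilobase of exon (linear axis from 0), for 18 libraries with the group mean as a bar. All 3 ratios are higher in the LPS and LPS/5z7 libraries than in the unstimulated ones, as for Psmb8 to Psmb5 with means of 0.612, 1.17 and 1.14 in B6 cells.

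The other genes of the pathway were taken from 8 lists. Their counts stand beside 29.6% of all genes higher and 33.5% lower after LPS in B6 cells, and 30.3% and 31.5% in T169A cells, and each is followed by the count with library size alone. Among further class I heavy chains and class I-like genes, 9 of 11 tested rose after LPS and 1 fell, in each genotype (7 higher and 2 lower with library size alone). H2-M2, a nonclassical chain, rose by 2.89 ± 0.17 (log2) in B6 and 3.16 ± 0.18 in T169A cells, and H2-T10 by 2.31 ± 0.16 and 2.03 ± 0.15. H2-T23, which encodes the Qa-1 chain that engages receptors on NK cells, rose by 1.05 ± 0.16 and 1.33 ± 0.16, and H2-M3, which presents formylated peptides, by 0.52 ± 0.10 and 0.58 ± 0.10. The gene that fell, named after its values were seen, was Mr1, which presents vitamin B metabolites to MAIT cells (-0.87 ± 0.09 and -0.92 ± 0.09).

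Of the peptide loading and trimming genes 2 of 5 rose in B6 cells, Tapbpl by 0.63 ± 0.10 and Canx, the chaperone calnexin, by 0.43 ± 0.10; without library 7 Calr (0.36) and Pdia3 (0.23) were called as well. In T169A cells 3 of 5 rose, Tapbpl by 0.69 ± 0.10, Canx by 0.38 ± 0.10 and Pdia3, the ERp57 disulfide isomerase, by 0.26 ± 0.10. With library size alone the list had 0 higher and 2 lower in each genotype, with Pdia3 (-0.51) and Calr (-0.42) called lower in B6 cells. The Pdia3 call in T169A cells was lost whichever of the 6 libraries was left out, at adjusted p of 0.0534 to 0.0975 in edgeR. The trimming peptidase Erap1 (0.36 ± 0.16 and 0.29 ± 0.16) and calreticulin, Calr (0.17 ± 0.13 and 0.27 ± 0.13), were not called in either genotype; in B6 cells Erap1 was called without library 4 (0.52) or 8 (0.47) and by DESeq2 (0.40, adjusted p = 0.0429). Blocking on sets of 3 libraries with successive numbers (a replicate block), both were called in both genotypes, Erap1 at edgeR adjusted p of 0.00312 in B6 and 0.0192 in T169A cells and Calr at 0.0378 and 0.00453. Of the inducible proteasome genes 3 of 4 rose in B6 and 4 of 4 in T169A cells: Psme2, a subunit of the PA28 activator, by 1.57 ± 0.16 and 1.92 ± 0.16, its partner Psme1 by 0.77 ± 0.15 and 1.09 ± 0.15, and Psmb10 by 0.96 ± 0.18 and 1.37 ± 0.18. With library size alone 1 was higher and 1 lower in B6 cells, where Psmb10 (0.37) and Psme1 (0.17) were not called and the assembly factor Pomp was lower (-0.38), and 3 were higher in T169A cells. Standard catalytic subunits also rose, 2 of 3 in B6 and 3 of 3 in T169A cells: Psmb6 by 0.73 ± 0.13 and 0.92 ± 0.13, Psmb7 by 0.40 ± 0.12 and 0.72 ± 0.12, while Psmb5 was at 0.21 ± 0.15 in B6 cells and rose by 0.50 ± 0.15 in T169A cells. With library size alone 0 were higher and 1, Psmb5, lower (-0.38) in B6 cells, and 1 was higher in T169A cells. Without library 7 all 4 inducible and all 3 standard genes were called in B6 cells. The rises of Canx, H2-M3 and Psmb7 in B6 cells and of Canx, H2-M3, Pdia3 and Psmb5 in T169A cells turned negative with library size alone.

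Class II genes split. H2-Ab1, the beta chain partner of H2-Aa, rose by 0.94 ± 0.26 in B6 and 1.12 ± 0.27 in T169A cells, from 2.86, 2.72 and 5.97 CPM to 6.44, 6.93 and 8.39 CPM in B6 libraries. H2-Eb1, the beta chain of I-E, rose by 0.66 ± 0.22 and 0.84 ± 0.21. H2-DMa, a chain of the peptide exchange factor DM, stood at 0.01 ± 0.14 and 0.05 ± 0.14, and H2-DMb2, named after its values were seen, fell (-0.77 ± 0.26 and -0.94 ± 0.27). The B6 call for H2-DMb2 was lost without library 1 (edgeR adjusted p = 0.0651) or 2 (edgeR adjusted p = 0.1), and H2-DMa was called higher without library 7 (0.25). Of 5 genes of this list tested, 2 rose and 1 fell in each genotype, against 0 higher and 3 lower in each with library size alone, where H2-Ab1 (0.35 and 0.54) and H2-Eb1 (0.07 and 0.26) were not called and H2-DMa was lower (-0.58 and -0.53); the H2-Eb1 call in B6 cells was lost without library 4 (edgeR adjusted p = 0.079) or 5 (edgeR adjusted p = 0.0723). Among 7 class II processing genes Sppl2a, the protease that removes the invariant chain remnant, rose by 1.21 ± 0.15 and 1.04 ± 0.15, and March1, the ubiquitin ligase that takes class II off the surface, fell (-0.77 ± 0.25 and -0.82 ± 0.25). In B6 cells the March1 call was lost without library 4 (edgeR adjusted p = 0.0615) or 8 (edgeR adjusted p = 0.0523). The other 5 were not called in either genotype, among them cathepsin S, Ctss, at 0.07 ± 0.11 and 0.25 ± 0.11. With library size alone 1 gene of the list was higher and 6 were lower in each genotype, Ctss among them (-0.52 and -0.33), while DESeq2 called Ctss higher in T169A cells (0.27, adjusted p = 0.0253).

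Of 15 regulators of MHC genes 9 were higher and 2 lower in B6 cells, and 9 higher and 3 lower in T169A cells. Library size alone gave 8 higher and 5 lower in B6 cells, and for T169A cells 7 and 5. Irf1 went from 79.2, 105 and 96.1 CPM to 1701, 1730 and 1758 CPM in B6 cells, a log2 fold change of 4.21 ± 0.13 (edgeR adjusted p = 6.15e-14). In T169A cells its fold change was 4.35 ± 0.13. Stat2, a subunit of the interferon response complex, rose by 2.46 ± 0.09 and 2.38 ± 0.09. Nlrc5, the class I coactivator, went from 42.6, 43.4 and 30.5 CPM to 108, 97.2 and 100 CPM in B6 cells, or 1.39 ± 0.22, and rose by 1.27 ± 0.22 in T169A cells. Library 7 was the lowest of its group for Nlrc5 and the highest for the class I genes among the members. It was not the highest for every gene of the class I list, as H2-T24 and Mr1 were lowest there. Ciita, the class II coactivator, was scarce in unstimulated cells, at 0.368 to 0.989 CPM, and rose by 1.84 ± 0.37 and 1.14 ± 0.37. The T169A call for Ciita was lost without library 11 (0.92, edgeR adjusted p = 0.0821) or library 13 (0.89, edgeR adjusted p = 0.066). Rfx5, whose product binds the X box of MHC promoters, rose by 1.10 ± 0.15 and 1.05 ± 0.15, while its partners Rfxank (-1.28 ± 0.16 and -1.01 ± 0.16) and Rfxap (-1.07 ± 0.16 and -0.89 ± 0.16), fell; in T169A cells so did Nfya, a subunit of NF-Y (-0.40 ± 0.11). These 3 are named after their values were seen. Irf8 was at 0.36 ± 0.18 in B6 cells, not called, but called without library 7 (0.48, edgeR adjusted p = 0.0315) and with the replicate block (0.35, edgeR adjusted p = 0.0174). It rose by 0.47 ± 0.18 in T169A cells, where the call was lost without library 10, 11 or 16 (edgeR adjusted p of 0.0633 to 0.151) and the value was -0.12 with library size alone.

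Interferon ligands, receptors and their kinases rose in 7 of 8 tested in B6 and 8 of 8 in T169A cells. Library size alone gave 5 higher and 2 lower in B6 cells, and for T169A cells 4 and 1. Ifnb1 had 1 to 3 counts in a B6 unstimulated library and 0 to 2 in a T169A one, and reached 56.0, 62.8 and 60.0 CPM after LPS in B6 cells and 58.7, 53.2 and 45.2 CPM in T169A cells (edgeR adjusted p = 1.3e-13 and 1.44e-13). Jak2, a kinase of the interferon gamma receptor, rose by 4.26 ± 0.16 and 4.33 ± 0.16. Ifng had 0 counts in all 18 libraries, which allows up to 0.205 CPM in the shallowest of them.

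**Figure D4:**
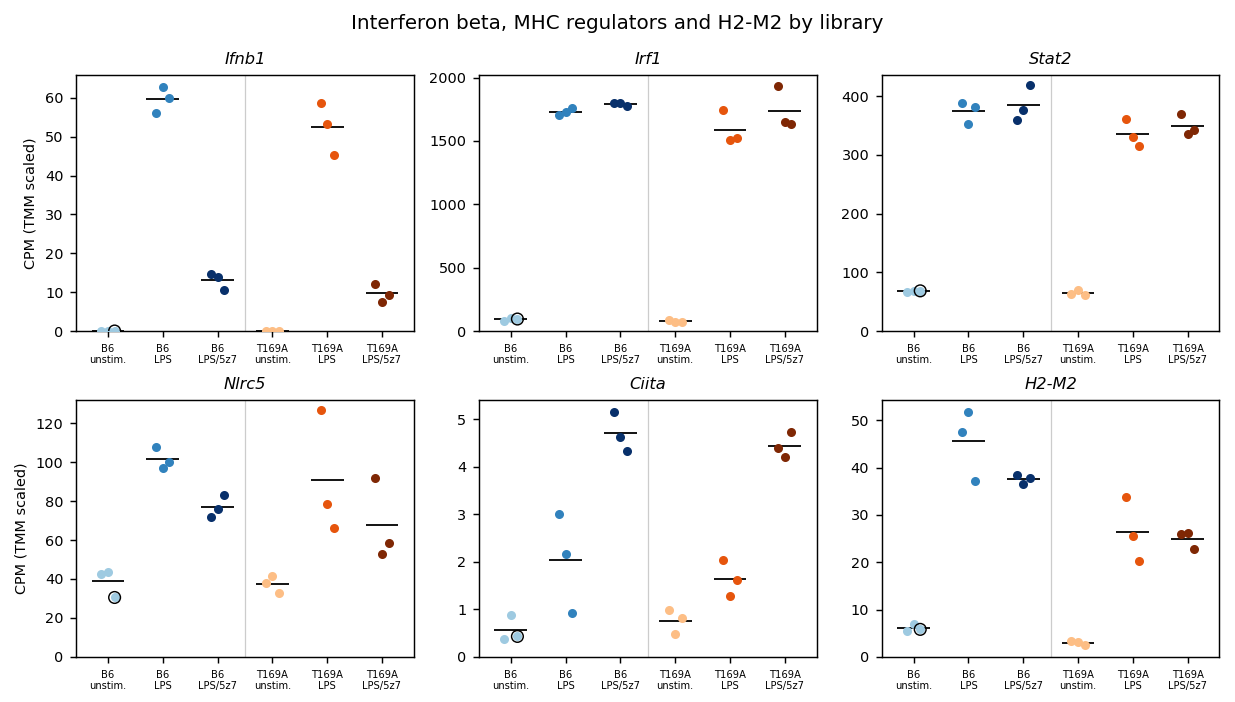
CPM (linear axis from 0, TMM scaled) of Ifnb1, Irf1, Stat2, Nlrc5, Ciita and H2-M2 in each of the 18 libraries, with the group mean as a bar and B6 unstimulated library 7 circled. Ifnb1 falls from 59.6 to 13.1 CPM on average when 5z7 is added in B6 cells. Ciita goes from 2.03 to 4.70 CPM there, while Irf1 stays at the LPS level. The H2-M2 points lie lower in T169A than in B6 cells under each treatment. This difference was not called under LPS/5z7, and its calls in unstimulated and LPS cells were lost without some single libraries.

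The LPS/5z7 libraries were then compared with those of LPS alone. Of all genes tested, 7.03% were higher and 6.79% lower in LPS/5z7 than in LPS libraries of B6 cells, and 6.5% and 6.53% in T169A cells. With library size alone 81.9% and 80.4% of the genes called were higher, beside 50.9% and 49.9%. None of the 10 members was called in either genotype by edgeR, none had an unadjusted p under 0.05, and DESeq2 called 0. Tap1 stood at 256, 284 and 298 CPM under LPS/5z7 in B6 cells, with a log2 difference from LPS of -0.16 (95% interval -0.43 to 0.10), and at 302, 246 and 250 CPM in T169A cells (-0.16, interval -0.43 to 0.10). Both sets of libraries overlapped those of LPS alone. For H2-K1 the differences were -0.09 (-0.34 to 0.16) and -0.07 (-0.32 to 0.18), with B6 libraries at 1422, 1405 and 1514 CPM. Tapbp gave the tightest bounds, -0.04 (-0.21 to 0.14) and 0.03 (-0.15 to 0.21). The widest were those of Cd74, -0.19 (-0.69 to 0.31) in both genotypes.

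Over the 10 genes the differences ran from -0.19 to 0.20 in B6 and from -0.27 to 0.09 in T169A cells, with intervals that reached -0.69 and 0.58. H2-Aa had the highest difference in B6 and the lowest in T169A cells: 4.98, 5.98 and 5.83 CPM in B6 cells (0.20, interval -0.19 to 0.58) and 6.09, 3.59 and 6.00 CPM in T169A cells (-0.27, interval -0.65 to 0.11), where library 15 was low. H2-D1 and Cd74 in T169A cells were lower in every LPS/5z7 library than in any LPS library, without passing the test. They were at 2337, 2228 and 2306 CPM and at 44.0, 39.0 and 43.5 CPM. In B6 cells 0 of 10 members were apart in this way, and the share over all genes was not counted. Psmb8 to Psmb5 remained at a mean of 1.14 ± 0.0949 in B6 and 1.1 ± 0.0934 in T169A cells.

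Against unstimulated cells, 27.6% of genes were higher and 27.9% lower under LPS/5z7 in B6 cells, and 28.1% and 27.5% in T169A cells. All 10 members were higher in both genotypes, by 0.37 ± 0.10 (H2-D1) to 2.23 ± 0.13 (Tap1) in B6 cells and by 0.61 ± 0.10 (H2-D1) to 2.30 ± 0.13 (Tap1) in T169A cells. These comparisons share their unstimulated libraries with those of LPS alone. The B2m call in B6 cells (0.39 ± 0.13, edgeR adjusted p = 0.0154) was lost without library 1, 4 or 9, at adjusted p of 0.064 to 0.0734 in edgeR, and the H2-Aa call in T169A cells (0.61 ± 0.18, edgeR adjusted p = 0.00931) without library 12 or 18, at 0.0772 and 0.0518 in edgeR. In the latter comparison library 15, at 3.59 CPM, lay among the unstimulated libraries.

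In the same libraries Ifnb1 fell to 14.8, 13.9 and 10.5 CPM in B6 cells, a log2 difference from LPS of -2.19 ± 0.17 (edgeR adjusted p = 2.02e-07), and to 12.1, 7.63 and 9.37 CPM in T169A cells (-2.42 ± 0.18, edgeR adjusted p = 7.09e-08). Irf1, at 1801, 1797 and 1774 CPM in B6 cells, differed by 0.05 (95% interval -0.19 to 0.29). Nlrc5 was lower in all 3 B6 LPS/5z7 libraries than in any LPS library, at 71.7, 76.0 and 82.9 CPM, but was not called (-0.41 ± 0.22, edgeR adjusted p = 0.258). Fitted on these groups alone it was called (edgeR adjusted p = 0.00503). In T169A cells it stood at -0.42 ± 0.22, not called, and was called without library 12 (-0.71, edgeR adjusted p = 0.0414). Ciita rose from 3.0, 2.17 and 0.933 CPM to 5.16, 4.62 and 4.34 CPM in B6 cells, by 1.14 ± 0.30 (edgeR adjusted p = 0.0179), and by 1.40 ± 0.31 in T169A cells (edgeR adjusted p = 0.00648). The B6 call rested on 3 libraries a group: it was lost without library 3, 5, 6 or 8, at adjusted p of 0.0517 to 0.0673 in edgeR. H2-Ab1, like the members, was not called, at 0.01 ± 0.25 and 0.03 ± 0.25. The other pathway genes called in this comparison, all but Tapbpl and Jak2 named after their values were seen, were Tyk2 (0.35 ± 0.10), Ctsl (-0.34 ± 0.10), Irf9 (-0.22 ± 0.07) and Ifnar2 (-0.27 ± 0.08) in B6 cells, and Tapbpl (0.31 ± 0.10) and Jak2 (-0.43 ± 0.14) in T169A cells. Each of these 6 calls was lost when 1 library or another was left out. None is shown to differ between genotypes: Jak2 was at -0.41 ± 0.14 in B6 cells (edgeR adjusted p = 0.0537), where DESeq2 (-0.45, adjusted p = 0.0169) and the replicate block (edgeR adjusted p = 0.0182) called it and its libraries were at 1030, 965 and 968 CPM after LPS and at 721, 738 and 768 CPM under LPS/5z7, without overlap. In T169A cells DESeq2 called Ctsl (-0.30), Irf9 (-0.18) and Ifnar2 (-0.23), and the replicate block called Ctsl (-0.27).

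Between genotypes, 0.214% of genes differed in unstimulated cells, 0.222% after LPS and 0.161% under LPS/5z7. No member was called by edgeR or DESeq2 in any of the 3 comparisons. At an unadjusted p under 0.05 there was 1 member in unstimulated cells, H2-K1, and none in the other comparisons. In unstimulated cells all 10 estimates were lower in T169A, from -0.03 (H2-Aa) to -0.41 ± 0.24 (Cd74), with H2-K1 at -0.30 ± 0.12 (edgeR adjusted p = 0.747). Without library 7 the 10 estimates ran from -0.13 to 0.07, with a median of 0.00 and 5 of 10 positive, and the smallest edgeR adjusted p was 0.687. After LPS they ran from -0.11 (Tapbp) to 0.38 (H2-Aa), and under LPS/5z7 from -0.09 to 0.10. The H2-Aa libraries after LPS did not overlap between genotypes, at 4.56 to 5.13 CPM in B6 and 5.37 to 6.91 CPM in T169A cells (0.38 ± 0.18, edgeR adjusted p = 0.876). The 95% intervals over the 10 genes stayed between -0.92 and 0.76 in all 3 comparisons, so that changes of that size were not excluded for the noisier genes.

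**Figure D5:**
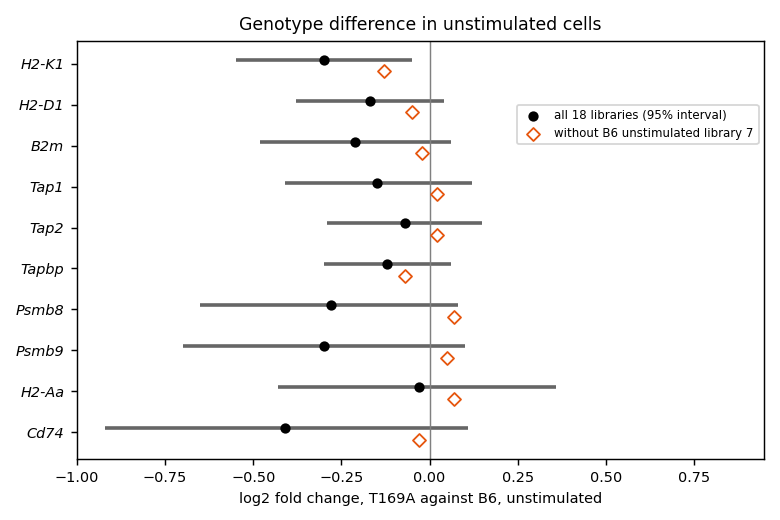
Log2 fold change of the 10 members between T169A and B6 unstimulated cells with all 18 libraries (black, with 95% intervals) and without B6 unstimulated library 7 (orange diamonds). All 10 estimates are under 0 with all libraries; without library 7 they lie between -0.13 and 0.07.

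The LPS effect itself was not called as different between genotypes for any gene: edgeR called 0 of 13068 (0%), with 421 at an unadjusted p under 0.05, and DESeq2 called 0. For the effect of adding 5z7 the counts were also 0 (0%), with 151 at an unadjusted p under 0.05, and 0 by DESeq2. The larger LPS fold changes of the members in T169A cells are therefore not shown to differ from those in B6 cells. Without library 7 the differences of the LPS effect ran from -0.11 to 0.31, with 3 of 10 above 0.

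One gene of the lists, H2-M2, was called between genotypes. It was at 5.51, 7.00 and 5.81 CPM in unstimulated B6 cells and at 3.30, 3.06 and 2.57 CPM in T169A cells (-1.04 ± 0.19, edgeR adjusted p = 0.0222). After LPS it was at 47.6, 51.8 and 37.2 CPM against 33.8, 25.5 and 20.2 CPM (-0.78 ± 0.15, edgeR adjusted p = 0.0448). Under LPS/5z7, at 38.4, 36.5 and 37.9 against 25.9, 26.2 and 22.9 CPM, it was not called (-0.59 ± 0.15, edgeR adjusted p = 0.294). The libraries of the genotypes did not overlap under any treatment. Leaving out 1 library ended the call in 3 of 6 cases in unstimulated cells (without library 4, 13 or 16, edgeR adjusted p up to 0.227) and in 4 of 6 after LPS (without library 2, 5, 14 or 17, edgeR adjusted p up to 0.367), with the difference between -1.12 and -0.63 throughout. Fitted on only the groups compared, the calls in unstimulated cells (edgeR adjusted p = 0.208) and after LPS (edgeR adjusted p = 0.547) were lost, and the difference under LPS/5z7 was called (-0.58, edgeR adjusted p = 0.00584). H2-M2 was the only one of the 58 pathway genes tested that was called between genotypes.

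Over the 18 libraries, the genes whose log2 CPM ran most like Tap1 among 12810 compared were Daxx (Pearson's r = 0.998), Ifi47 (0.997) and Mx2 (0.997). For H2-K1 they were Saa3 (0.993), Gsdmd (0.991) and H2-T23 (0.99), and for H2-Aa Vgf (0.894), Kctd6 (0.887) and D930030I03Rik (0.884). Daxx encodes a histone chaperone, Ifi47 and Mx2 encode interferon-induced GTPases, Saa3 an acute phase protein and Gsdmd the pore-forming gasdermin D. These values describe a set of libraries that differ mainly by LPS, and all points of a gene pair share their libraries and depth.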

How the data were processed

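Total RNA from 18 macrophage cultures was sequenced from directional libraries, per the labels' protocols. The deposited table holds unnormalised counts of reads by gene. The submitters' processing notes name the build GRCm39 and the tools Trim Galore, STAR and featureCounts. Versions, strand setting and the treatment of reads that match several genes are not given in the sources used here. The column names hold no replicate letter, only the group and a number, so they were tied to groups. Symbols, chromosomes and gene lengths came from GENCODE M21 (52029 of 56953 IDs, 99.8% of counts), and promoters from RefSeq on GRCm38.p6.

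Counts were filtered with filterByExpr, TMM scaled and fitted with edgeR 4.0.16 (R 4.3.3) as 6 group means over all 18 libraries. The 11 comparisons were tested with the quasi-likelihood F-test, adjusted by Benjamini-Hochberg over 13068 genes at 0.05. The SE is the log2 fold change over the square root of F. The code was tested on simulated data. Alternatives were DESeq2 1.42.0, other scalings and filters, fewer groups, a replicate block and each library left out.

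The members and lists were chosen with earlier results of these data known. Named are all 10 members, 23 pathway genes chosen by name (a 24th is not reported here), the 2 called genes of each list with the smallest p for LPS in B6 cells, and the 3 genes most correlated with Tap1, H2-K1 and H2-Aa.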

Additional observations from a re-analysis of the deposited data

How the results depend on the processing

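Of 1520 member values under the alternatives, 1495 kept their side of the threshold, 20 lost significance and 5 called values changed sign. Values called in neither fit count as kept, whatever their sign. Of the 25 that were lost or changed sign, 15 came with library size alone. That scaling also moved the number of members called from 10 to 5 (B6, LPS) and to 6 (B6, LPS/5z7 against unstimulated). The 5 sign changes of called values were in B6 cells with library size alone. They were H2-D1 -0.11, B2m -0.07 and H2-Aa -0.12 for LPS, and H2-D1 -0.06 and B2m -0.04 for LPS/5z7 against unstimulated. Among other pathway genes that setting gave Psmb7 -0.19, H2-M3 -0.07 and Canx -0.16 for LPS in B6 cells, and Psmb5 -0.08, H2-M3 -0.00, Pdia3 -0.32, Irf8 -0.12 and Canx -0.20 in T169A cells. Of 1154 values of the other named pathway genes, 136 changed: 87 lost significance, 41 gained it and 8 called values changed sign. Library size alone gave 32 of the 136. Gained calls could have the opposite sign to the estimate with TMM scaling, as for Psmb5 (-0.38) and Calr (-0.42) for LPS in B6 cells with library size alone. With each library left out the number of members called was 9 to 10 for LPS in B6 cells and for LPS/5z7 against unstimulated in either genotype, 10 for LPS in T169A cells, and 0 for the effect of 5z7 and for all genotype comparisons.

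The sample titles share letters across treatments, but the columns carry only running numbers, which do not name a letter. Sets of 3 consecutive running numbers were tried as a replicate block: their 18 pairs of libraries had correlations of -0.05 to 0.46, 10 above 0.1. For LPS against unstimulated in B6 cells all 3 pairs were above 0.1 (0.31, 0.18 and 0.46), a hint of pairing there; in each other comparison within a genotype at least 1 pair was not. With this replicate block 10 members were called for LPS and for LPS/5z7 against unstimulated in each genotype and 0 for 5z7, as without it; among the other named genes the block added 7 calls, of Erap1 and Calr in both genotypes, Irf8 and Jak2 in B6 and Ctsl in T169A cells, and ended none.

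The count of genes called over the whole table moved by more than 1.5 times in some settings. For 5z7 it was 1806 (B6) and 1703 (T169A), with library size alone 2855 and 2707, and 1159 without library 5, 1169 without 6, 1102 without 14, 1078 without 15 and 1009 without 18. Between genotypes it was 28 in unstimulated cells (7 on those groups alone, 61 with DESeq2, 45 and 46 without library 10 or 7), 29 after LPS (13, 51 and 16 to 19) and 21 under LPS/5z7 (223 on those groups alone, 44 with DESeq2, 39 without a filter). For LPS/5z7 against unstimulated, library size alone changed the share of higher calls from 49.7% to 22.1% (B6) and from 50.6% to 22% (T169A). The cause was not tested. Depth limits H2-Aa, with as few as 66 counts in a library, and Ciita, with as few as 8.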
